A study of Mus musculus with 2 samples.

Results

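Intergenic loci are stretches of the mouse genome from which long RNA reads were sequenced although no annotated gene lies there. Long-read RNA-seq reads whole cDNA molecules, and the TALON pipeline that made the deposited models gives each read to an annotated gene, to a locus antisense to one, or, where neither holds, to an intergenic locus. The members were all models with the gene class Intergenic in either library, without spike-in chromosomes, grouped into loci by the deposited gene coordinates. Replicate 1 held 1456 such loci with 1529 transcript models, and replicate 2 held 3586 loci with 3780 models. Loci were matched between the libraries where they lay on the same strand and overlapped by at least 50% of each. This gave 4548 loci over both libraries, out of 40349 annotated genes and unannotated loci with mouse reads.

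The series holds 1 group of 2 libraries, each from the gastrocnemius (calf muscle) of a female B6CASTF1/J mouse aged 25 days, supplied by The Jackson Laboratory. The animals are numbered 3 (replicate 1) and 4 (replicate 2), and each library started from 2 µg of total RNA with added spike-in RNA. B6CASTF1/J mice are first-generation hybrids of C57BL/6J and CAST/EiJ, while all models refer to the mm10 build. Both samples share 1 donor record, so their separation into 2 animals rests on the animal numbers. No treatment or control was labelled, so every comparison between the libraries is one of 2 libraries and not of conditions.

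Mouse reads numbered 1069771 in replicate 1 and 1557594 in replicate 2. Muscle markers were among the most read genes (Acta1 with 79155 and 117236 reads, Ckm with 64103 and 108494), and markers of other tissues were at 0 (Krt5, Krt14, Gfap, Snap25 and Apoa1) or low (Krt10 with 9 and 18 reads, Alb with 2 and 0). The tendon markers Fmod, Chad and Tnmd had 22, 5 and 5 reads in replicate 1 and 259, 103 and 89 in replicate 2. Among the other muscle markers, Atp2a1 had 168943 and 87863 reads, Myh4 17501 and 12403, and Myh1 8208 and 2339. Mylpf had 14530 and 34840 reads and Tnnc2 19902 and 55103, so these markers moved both ways. The slow-fibre gene Tnnt1 had 204 and 5366 reads. The fat markers Cfd, Adipoq and Scd1 had 290, 49 and 69 reads in replicate 1 and 116, 18 and 4 in replicate 2, and the red-cell markers Hbb-bs and Alas2 374 and 28 against 188 and 1. The part of these tissue differences in the results below was not tested. In whole muscle, fewer cells of a type and less RNA per cell cannot be told apart.

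Transcription outside annotated genes is commonly seen around active genes: RNA polymerase can run on past the 3′ end of a gene, and most active promoters also fire in the opposite direction. Other intergenic transcripts are spliced long non-coding RNAs that an annotation has not yet taken in, or come from copies of mRNAs that were reverse-transcribed back into the genome (processed pseudogenes). A spliced model is the more specific evidence of a transcript, because a single-exon read can also arise when a cDNA is primed inside a longer RNA or on genomic DNA.

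Sequences are shown for the loci that started at a promoter listed in RefSeq, since these are the members for which a start can be set beside an independent annotation. They come from RefSeq's promoter windows on GRCm38.p6 (250 bases before to 50 after a start), read in the direction of the RefSeq gene; capitals mark the bases that belong to the intergenic locus as drawn in the library with more reads. Gm38791 and AB010352 were chosen after their values were seen. The 4 genes are long non-coding RNAs whose symbols are absent from the GENCODE M21 annotation. The windows lie at chr5:111490630-111490929, chr6:14608201-14608500, chr6:37714405-37714704 and chr5:109866461-109866760, all on the plus strand.

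Gm36149: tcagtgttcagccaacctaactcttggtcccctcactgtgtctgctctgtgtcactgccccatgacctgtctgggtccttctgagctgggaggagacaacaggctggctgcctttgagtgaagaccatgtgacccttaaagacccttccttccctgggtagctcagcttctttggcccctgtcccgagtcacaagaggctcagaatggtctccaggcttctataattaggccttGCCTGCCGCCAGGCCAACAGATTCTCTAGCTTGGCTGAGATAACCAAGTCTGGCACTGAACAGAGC
Gm38768: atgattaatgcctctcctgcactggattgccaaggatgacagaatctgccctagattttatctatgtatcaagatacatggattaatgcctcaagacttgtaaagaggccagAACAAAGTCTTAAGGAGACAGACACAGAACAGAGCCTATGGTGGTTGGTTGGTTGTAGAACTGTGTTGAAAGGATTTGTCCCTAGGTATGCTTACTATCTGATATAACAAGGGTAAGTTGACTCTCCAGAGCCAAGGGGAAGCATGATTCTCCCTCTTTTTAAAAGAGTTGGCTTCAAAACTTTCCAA
Gm38791: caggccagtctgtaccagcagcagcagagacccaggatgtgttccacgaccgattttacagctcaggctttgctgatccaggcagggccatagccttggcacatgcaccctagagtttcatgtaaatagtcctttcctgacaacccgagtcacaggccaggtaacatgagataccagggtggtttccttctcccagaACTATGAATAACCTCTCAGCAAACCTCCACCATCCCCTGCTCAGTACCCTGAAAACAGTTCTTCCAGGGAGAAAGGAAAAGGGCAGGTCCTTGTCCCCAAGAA
AB010352: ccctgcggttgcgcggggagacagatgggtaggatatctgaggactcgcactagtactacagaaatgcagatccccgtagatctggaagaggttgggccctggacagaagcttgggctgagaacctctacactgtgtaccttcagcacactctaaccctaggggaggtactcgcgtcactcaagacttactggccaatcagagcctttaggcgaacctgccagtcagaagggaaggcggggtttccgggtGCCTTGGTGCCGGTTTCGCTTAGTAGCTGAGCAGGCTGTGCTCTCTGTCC

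The locus at AB010352 started 0 bases from the RefSeq start in both libraries. The other starts differed between the libraries. At Gm36149 the locus started 19 bases after the RefSeq start in replicate 1 and 16 before it in replicate 2, at Gm38791 3 and 53 bases before it, and at Gm38768 123 and 138 bases before it. The locus at AB010352 had 3 reads in replicate 1 and 1 in replicate 2 and the locus at Gm38791 had 3 and 6, all spliced; those of the other 2 are given below. One more sequence, chr16:94526830-94527079 on the plus strand, is the upstream side of Vps26c, which encodes a subunit of an endosomal sorting complex and lies on the minus strand. It is read away from Vps26c, all of it belongs to the single-exon locus chr16:94526830-94527382 (also chosen after its values were seen), and capitals mark CG pairs.

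Vps26c upstream: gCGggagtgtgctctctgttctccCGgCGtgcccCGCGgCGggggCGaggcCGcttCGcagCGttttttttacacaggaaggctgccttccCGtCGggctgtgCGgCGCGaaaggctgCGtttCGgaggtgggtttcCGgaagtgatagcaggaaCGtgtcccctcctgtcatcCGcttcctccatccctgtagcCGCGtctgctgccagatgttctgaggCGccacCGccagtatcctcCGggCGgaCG

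These 250 bases hold 27 CG pairs and 65.6% G or C, against a median of 6 CG pairs and 52.4% over the 250 upstream bases of all 32851 RefSeq promoter windows. The same stretch held 2 CG pairs in Gm36149, 0 in Gm38768, 3 in Gm38791 and 10 in AB010352.

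Few reads were intergenic, and their share differed between the libraries. In replicate 1, 3126 reads were intergenic, or 0.292% of mouse reads (exact Clopper-Pearson 95% interval 0.282% to 0.303%). In replicate 2 there were 11254, or 0.723% (0.709% to 0.736%). The mean was 0.507% ± 0.304 (SD, n = 2). The intervals cover counting error only. Annotated lincRNA genes, the nearest annotated class, held 0.266% and 0.341% of mouse reads, and unannotated antisense loci 2.15% and 3.95%. Replicate 2 was thus higher in all 3 classes, and lower in protein-coding genes (96.0% and 93.2%).

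Most loci rested on 1 read. A single read supported 1127 of 1456 loci in replicate 1 (77.4%) and 2539 of 3586 in replicate 2 (70.8%). At least 10 reads supported 23 and 114 loci. The 10 most read loci held 28.3% of the intergenic reads of replicate 1 and 34.2% of those of replicate 2. Among annotated lincRNA genes with reads, 52.2% and 43.0% had 1 read, and among protein-coding genes 12.0% and 12.5%.

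**Figure D1:**
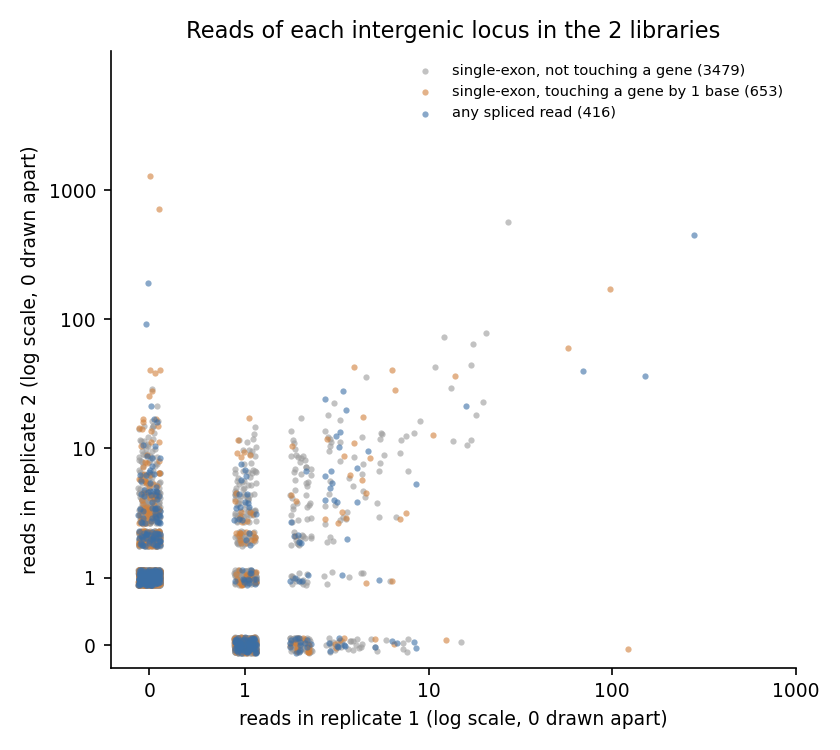
Reads of each of the 4548 intergenic loci in replicate 1 (x axis) and replicate 2 (y axis), both on log scales with 0 drawn apart and points spread slightly; colours give single-exon loci that do not touch an annotated gene, single-exon loci that touch one, and loci with any spliced read. The columns of points at 0 are the 3092 loci seen only in replicate 2 and the 962 seen only in replicate 1, and 2 loci at 0 in replicate 1 reach 1430 and 760 reads in replicate 2.

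The loci were mostly short and unspliced. In replicate 1, 1281 loci had no spliced read, with a median span of 516 bases, while the 175 spliced loci spanned a median of 4778 bases. In replicate 2 there were 3286 unspliced loci (median span 235.5 bases) and 300 spliced ones (3726 bases). In both libraries the fullest 20-base class of spans was 161 to 180 bases, with 263 loci (18.1%) in replicate 1 and 780 (21.8%) in replicate 2. Spans of 160 to 200 bases held 473 reads in replicate 1 and 4843 in replicate 2. Weighted by reads, the median length of the models was 1134 bases in replicate 1 and 188 in replicate 2. Models of protein-coding genes, weighted alike, were also shorter in replicate 2, with medians of 2363 and 1446 bases. The direction was thus shared, and its part in the intergenic lengths was not tested. Lengths of single reads were not measured, and these medians also depend on which genes and loci were read most.

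**Figure D2:**
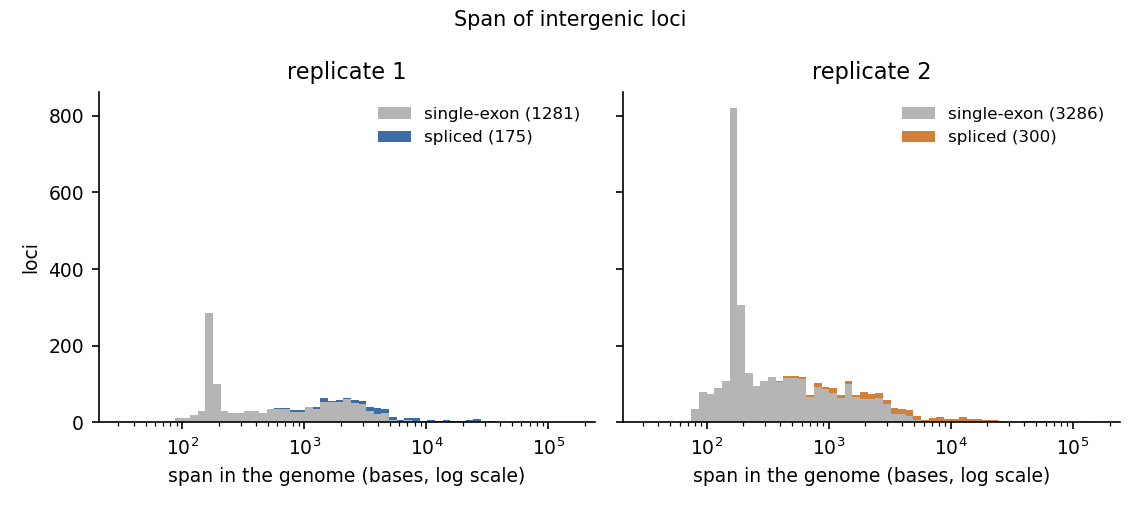
Number of intergenic loci by their span in the genome (x axis, bases, log scale) in replicate 1 (left) and replicate 2 (right), single-exon loci in grey with spliced loci stacked on top. Both libraries show a narrow peak at 161 to 180 bases, taller in replicate 2 (780 loci) than in replicate 1 (263), and spliced loci lie mostly above 1000 bases.

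Spliced models held 277 of 3126 intergenic reads in replicate 1 (8.86%, exact interval 7.89% to 9.91%) and 727 of 11254 in replicate 2 (6.46%, 6.01% to 6.93%). Unannotated antisense loci had still smaller spliced shares, 3.80% and 2.91%. Annotated lincRNA genes had 61.3% and 55.0%, and protein-coding genes 96.2% and 91.3%. The intergenic share thus lay above the antisense share in both libraries and far below that of annotated lincRNAs.

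Few loci of replicate 2 were found again in replicate 1. The 494 matched loci made up 33.9% of the loci of replicate 1 and 13.8% of those of replicate 2, and held 1774 and 3714 reads, or 56.7% and 33.0% of the intergenic reads. Loci with 1 read in replicate 1 had a match in 26.7% of cases, and those with 10 or more in 87.0% (20 of 23). In replicate 2 the same shares were 6.77% and 61.4% (70 of 114). Spliced loci had a match in 37.1% (replicate 1) and 20.7% (replicate 2) of cases, single-exon loci in 33.5% and 13.1%. Over the 494 matched loci Spearman's rho of the 2 read numbers was 0.50, a description across loci that share their libraries. Antisense loci were matched at like shares, 37.1% and 16.0%.

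**Figure D3:**
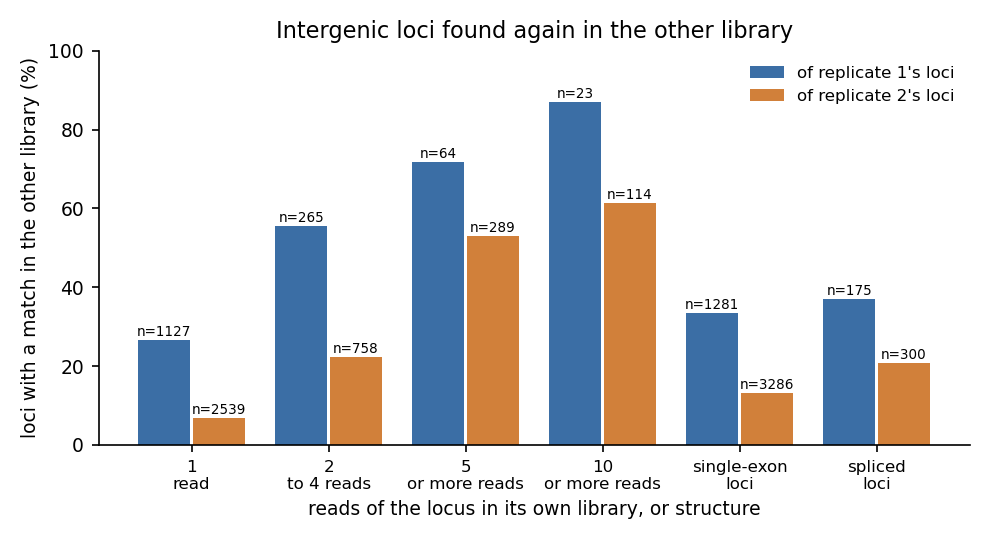
Percent of the intergenic loci of replicate 1 (blue) and replicate 2 (orange) that had a match in the other library, by reads of the locus in its own library and by structure; numbers of loci stand above the bars. The share rises with reads in both libraries, to 87.0% and 61.4% at 10 or more reads.

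Where the libraries both spliced a matched locus, they usually spliced it alike. Of 59 matched loci with spliced reads in both, 52 shared at least 1 intron to the base and 42 shared a whole intron chain. A match required overlapping spans, which introns help to set, so these counts describe matched loci alone. Over all intergenic models 99 introns were shared, out of 349 in replicate 1 and 607 in replicate 2. Median intron lengths were 1885 and 1747 bases.

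Beside annotated genes, 61.1% of the 4548 loci touched a gene or lay within 5000 bases of one (62.0% of the loci of replicate 1 and 61.1% of those of replicate 2). Downstream on the same strand, the side of transcription past a gene's end, lay 623 loci within 5000 bases without touching. Another 631 lay downstream on the opposite strand, 399 upstream on the same strand and 393 upstream on the opposite strand. Spliced loci were farther out: 235 of 416 (56.5%) were over 5000 bases from any annotated gene, against 1766 of all 4548 (38.8%).

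The gap to the nearest gene had a hole in it. A total of 720 loci touched an annotated gene by exactly 1 base, and overlaps of more than 1 base were found for 14 loci. Where the 5′ end of a locus faced a gene's 3′ end, 273 loci touched it, 2 had a gap of 1 to 299 bases, 9 a gap of 300 to 499 and 106 a gap of 500 to 799. Where a 5′ end faced a gene's 5′ end, the same counts were 298, 5, 3 and 56. Where the 3′ end of a locus faced a gene, no locus had a gap under 300 bases, while 52 touched a gene's 5′ end and 103 a gene's 3′ end. The ends of touching loci therefore sat on annotated ends to the base, and short gaps were nearly missing, up to 500 bases at 5′ ends and 300 bases at 3′ ends. Positions of single reads are not in the files used here, so whether the reads ended on those bases was not tested.

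**Figure D4:**
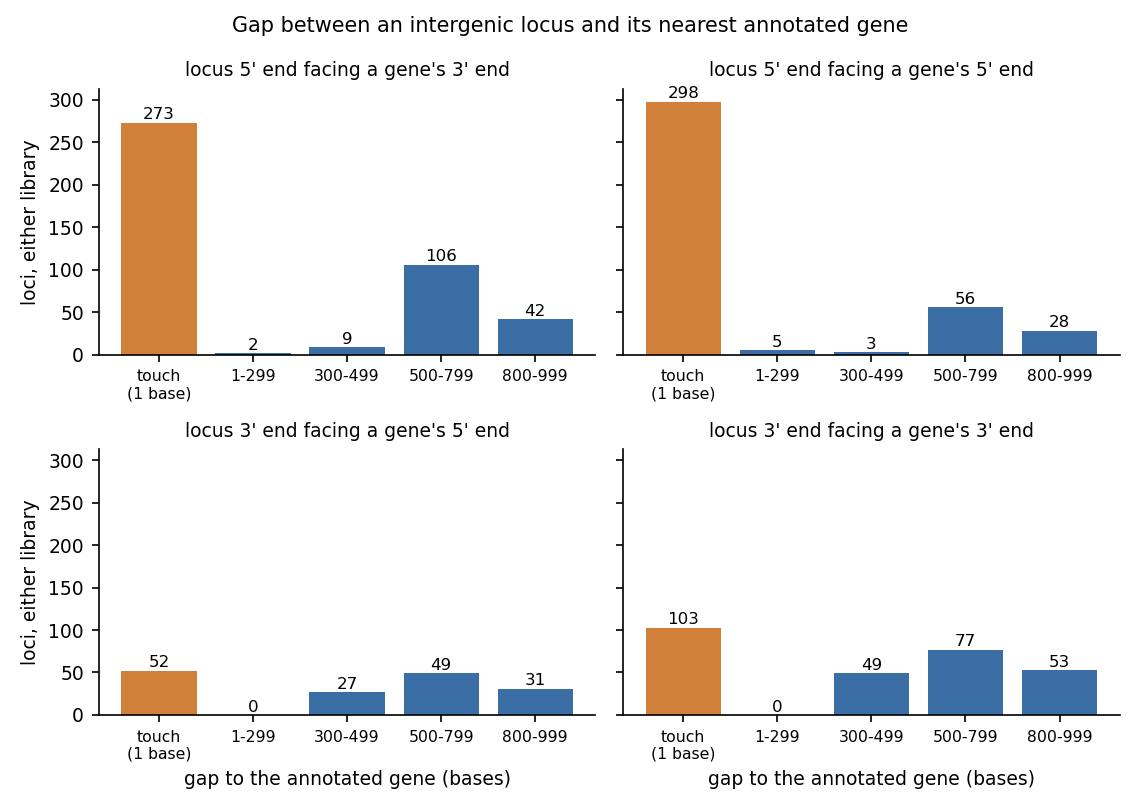
Number of intergenic loci (y axis, either library) by the gap to the nearest annotated gene (x axis, bases), in 4 panels by which end of the locus faces which end of the gene. Bars for gaps of 1 to 299 bases hold at most 5 loci beside 52 to 298 loci that touch, and at 5′ ends the bars for 300 to 499 bases are also near empty.

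Protein-coding genes nearest to the loci had reads more often than protein-coding genes at large, also where the locus was far away. Of protein-coding genes with a locus touching or within 5000 bases downstream on the same strand, 81.8% had reads in replicate 1 (189 of 231) and 82.3% in replicate 2 (399 of 485), against 53.7% and 55.8% of all 22028. On the upstream opposite side, the side of divergent promoters, the shares were 87.4% and 90.7%. Nearest genes over 5000 bases from their locus had reads in 69.1% and 71.4% of cases. No test was made of these shares.

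Loci that began on the last base of a processed pseudogene held many of the reads of replicate 2. A processed pseudogene is a copy of an mRNA inserted elsewhere in the genome. There were 82 such loci beside 81 pseudogenes, with 333 reads in replicate 1 and 2791 in replicate 2, out of 3126 and 11254 intergenic reads. The most read of all intergenic loci, chr4:91851488-91851668 on the minus strand, had 0 and 1430 reads and began on the last base of Gm12671. The pseudogene itself had 1630 and 1335 reads. The second, chr11:20334834-20335012 on the minus strand, had 0 and 760 reads and began on the last base of Gm12033, which had 1144 and 1106 reads. Both loci were at 0 in replicate 1 and high in replicate 2, while the pseudogenes were read in both.

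Both pseudogenes are copies of Gapdh, the glycolytic enzyme glyceraldehyde-3-phosphate dehydrogenase. Compared with all protein-coding transcripts of GENCODE M21, Gm12671 matched Gapdh over its whole 1002 bases at 100% identity and Gm12033 at 99.9%. The Gapdh gene itself had 61 and 80 reads. The last 30 bases of 3 such pseudogenes, taken from the GENCODE M21 transcripts, show where the annotated copies stop; capitals mark the stop codon.

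Gm12671: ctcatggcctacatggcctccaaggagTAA
Gm12033: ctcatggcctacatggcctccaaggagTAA
Gm10481: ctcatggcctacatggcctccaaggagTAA

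The annotated pseudogenes therefore end with the coding part of the parent, and Gapdh mRNA runs on for 178 bases beyond it. The loci that followed the 9 Gapdh copies spanned 179 to 200 bases. Over all 82 loci a parent was found for 79 (at least 80% identity over at least 50% of the pseudogene), with 63 different parents, and in 67 of the 79 the copy ended within 3 bases of the end of the parent's coding part. In 45 of the 79 the span of the locus lay within 50 bases of the length of parent mRNA beyond the copy. These 45 held 316 reads in replicate 1 and 2653 in replicate 2. Spearman's rho between the 2 lengths was 0.48 over the 79 loci, which share parents and libraries. Bases of the loci themselves were not read, as no genome sequence was used here, and reads shared between near-identical copies make the read numbers of single copies uncertain.

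**Figure D5:**
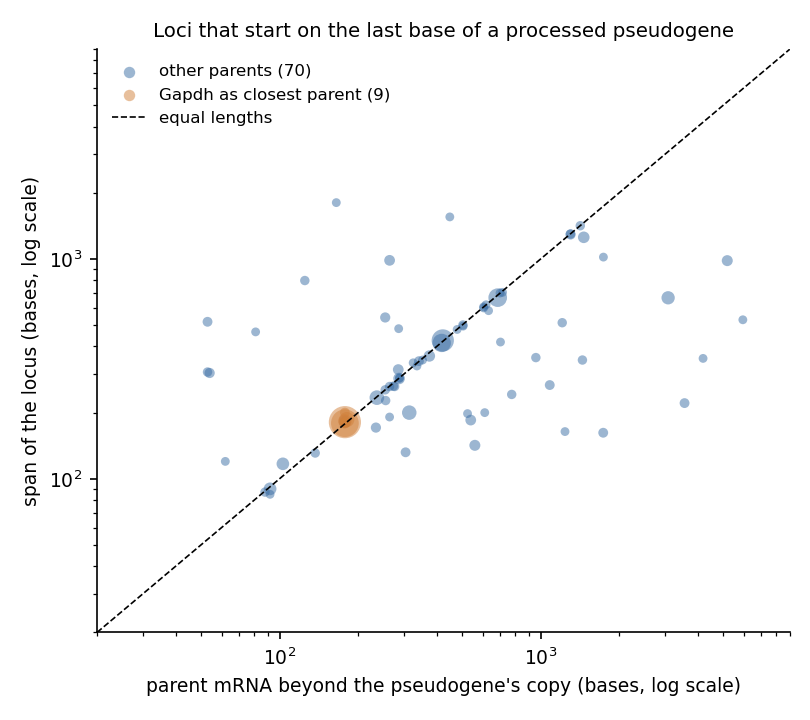
Span of each of 79 intergenic loci that start on the last base of a processed pseudogene (y axis, bases, log scale) against the length of the closest parent mRNA beyond the part copied in the annotated pseudogene (x axis, bases, log scale); larger points have more reads and the dashed line marks equal lengths. The 9 loci beside Gapdh copies sit together at 179 to 200 bases, close to the line, as do 45 of the 79 loci within 50 bases.

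Copies of Pgk1, which encodes the glycolytic enzyme phosphoglycerate kinase, gave 2 more of the 12 most read loci. Locus chr3:58102571-58102996, on the last base of Gm5537, had 102 and 188 reads, and the libraries did not differ past the threshold (log2 ratio of replicate 2 to replicate 1 of 0.34, adjusted p = 0.15, Fisher's exact test with Benjamini-Hochberg adjustment). Locus chr12:10898572-10898986, on the last base of Pgk1-rs7, had 120 and 0 reads, while Pgk1-rs7 had 118 and 238. Their spans, 426 and 415 bases, stood beside 422 and 418 bases of Pgk1 mRNA beyond the copies. Locus chr12:24638003-24638669, on the last base of Gm6969, a copy of Cox7a2l, had 59 and 69 reads.

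Other loci among the 12 most read had varied neighbours. Locus chr7:28187294-28189073 on the minus strand had 306 and 427 reads and did not differ between them past the threshold (286 and 274 CPM, reads scaled to the mouse reads of each library, log2 ratio -0.06, adjusted p = 0.75 by Fisher's exact test). Its 3′ end met the 3′ end of Dyrk1b, a protein kinase gene on the plus strand with 66 and 89 reads, so the locus was read more than its neighbour. Locus chr15:103619061-103619240 had 24 and 509 reads over 180 bases, 30551 bases from the lincRNA gene Gm49272, which had 0 reads in both libraries. Locus chr10:80807991-80808501 had 0 and 205 reads and overlapped the 3′ end of Jsrp1, which encodes a protein of the muscle calcium-release junction and had 322 and 531 reads. Locus chr4:133096215-133101553 went the other way, with 138 and 41 reads. Locus chr4:148590384-148590571 had 19 and 88 reads and lay 931 bases upstream of Srm on the opposite strand. Locus chr7:126643199-126643377 had 12 and 81 reads over 179 bases, 5931 bases from Sgf29.

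Another of the 12 most read loci, chrY:67834528-67839305, had 79 and 40 reads although both animals were female. In all 23 loci lay on chromosome Y, with 122 and 84 reads, and 5 of them were matched between the libraries. The Y-linked genes Ddx3y, Uty, Kdm5d and Eif2s3y had 0 reads in both libraries, and Xist, which marks the inactive X chromosome of females, had 3 and 11. How reads came to be placed on chromosome Y was not tested.

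Among spliced loci, the 8 with the most spliced reads were led by chrX:9328976-9329925 on the minus strand, with 84 of 87 reads spliced in replicate 2 and none in replicate 1. By its deposited coordinates it lay 867 bases upstream of the pseudogene Gm6829, which had 38 reads in replicate 1 and 0 in replicate 2. Its most read model was 1125 bases long, more than the 950 bases of those coordinates, so the gap is uncertain. In replicate 1, models given to Gm6829 with 38 reads covered 99.7% of the exons of this locus, so the same bases were read in both libraries under different labels. Locus chr14:31872346-31880458 had 16 of 16 and 21 of 23 reads spliced over up to 3 exons, 26069 bases from the lincRNA gene D830044D21Rik, with levels of 15.0 and 14.8 CPM.

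RefSeq lists long non-coding RNAs at several of the others. Locus chr6:14608313-14611919, whose start at Gm38768 is printed above, had 3 of 3 and 26 of 27 reads spliced, with up to 4 exons. Locus chr5:111490864-111492381 at Gm36149, 33830 bases downstream of the transcription co-regulator gene Mn1, had 3 of 3 and 26 of 26. Locus chr2:32087948-32110808 overlapped Gm33126 and also Plpp7, a gene of the lipid phosphatase family with 136 and 191 reads. All 21 reads of the locus, from replicate 2, were spliced, and replicate 1 had an overlapping locus of 1 read. Locus chr3:33972527-33993844, overlapping Gm46833, had 3 of 3 and 11 of 13. The last 2 had no RefSeq gene on their strand. Locus chr5:139484549-139512000 began in replicate 2 on the first base of Zfand2a, a stress-response gene on the opposite strand with 2 and 3 reads, and in replicate 1 505 bases from it. It had 4 of 4 and 17 of 18 reads spliced. Locus chr9:97150930-97157823 had 3 of 3 and 13 of 13.

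Over all loci, RefSeq genes on the same strand overlapped 118 of 416 spliced loci (28.4%) and 386 of 4132 single-exon loci (9.34%). Of these, 108 and 150 overlapped RefSeq genes whose symbols are absent from GENCODE M21, and for 98 of the 108 the gene was a long non-coding RNA. Among the 68 matched spliced loci the share overlapping RefSeq genes was 36.8%. The 5′ end of 54 loci fell in a RefSeq promoter window of the same strand, 37 of them spliced, and that of 199 loci in a window of the opposite strand. The 54 loci met 58 windows, of which 28 had the locus start within 50 bases of the RefSeq start and 10 within 5. The letters TATAAA (both strands, 250 upstream bases) stood in 5 of the 58 windows and in 12.4% of all windows, and GGGCGG in 15 of 58 and in 32.7%. These matches are a description of the windows.

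The longest exon chains, of up to 12 exons, belonged to 2 loci. These loci and those of the next 3 paragraphs were chosen after their values were seen. Locus chr10:107494737-107521248 had 9 reads in replicate 1, spread over 8 models (7 reads spliced), and 0 in replicate 2. Its first base is the first base of Myf6, a myogenic regulatory factor on the opposite strand with 71 and 104 reads, and it overlaps Ptprq, which had 0 and 2 reads. RefSeq's Gm36177 overlaps this locus on the same strand, and their exons were not compared. Locus chr13:83309830-83446420, overlapping RefSeq's Gm33217, had 1 and 7 reads, of which 1 and 3 were spliced. Its chain of 12 exons rested on the 1 read of replicate 1, as no locus of replicate 2 had more than 8 exons. The locus lay 57613 bases upstream of Mef2c, a transcription factor gene of muscle with 169 and 125 reads, on the opposite strand. Locus chr7:128011033-128011392 had 4 and 16 reads and touched Trim72, which encodes a membrane-repair protein of muscle with 15 and 23 reads.

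A cluster of loci surrounded the muscle microRNA genes Mir1a-1 and Mir133a-2, whose products are abundant in muscle and are cut from 1 long primary transcript. RefSeq lists that transcript as Mir1a-1hg (chr2:180385604-180401802, plus strand). One mature product listed at this place, at chr2:180389057-180389079, is printed with its seed, bases 2 to 8, in capitals. Other mature products of these genes are not printed. Whether the printed product is among the abundant ones was not tested, so its seed should not be read as theirs.

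mmu-miR-1a-1-5p: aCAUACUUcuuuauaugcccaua

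Between positions 180388064 and 180417801 of chromosome 2 lay 15 intergenic loci, 12 on the strand of the microRNAs and 3 on the other, with 26 and 37 reads in all and none spliced. The most read, chr2:180401807-180406631, had 15 and 12 reads, began 3324 (replicate 1) and 4461 bases (replicate 2) downstream of Mir133a-2 and lay beyond the end of Mir1a-1hg. The 5 loci inside Mir1a-1hg on its own strand had 1 to 5 reads each over both libraries. The 3 loci on the other strand also lay within its span. On the minus strand, chr2:180388064-180388467 had 2 and 13 reads, 580 bases upstream of Mir1a-1. The annotated Mir133a-2 gene had 25 and 36 reads and Mir1a-1 had 0 in both.

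Near highly read muscle genes, locus chr13:12266417-12266546, 2879 bases downstream of Actn2 on the same strand, had 16 and 58 reads. Actn2 encodes the actinin that crosslinks thin filaments at the Z-disc and had 3438 and 3362 reads. Locus chr8:46199878-46203993, downstream of Slc25a4 on the opposite strand, had 11 and 40. Slc25a4, the mitochondrial ADP/ATP carrier, had 10456 and 23230 reads. At Vps26c the upstream locus printed above had 7 and 43 reads and was read more in replicate 2 than Vps26c itself, which had 19 and 10. Locus chr11:100457022-100461670, touching Klhl10 on the same strand, had 4 and 44 reads beside 0 and 3 for the gene as annotated in GENCODE M21. RefSeq's Klhl10 overlaps this locus on the same strand. On the unplaced scaffold GL456382, where no gene is annotated, a locus of 109 bases had 4 and 35 reads.

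Of 146 loci with at least 10 reads over both libraries, 66 passed an adjusted threshold of 0.05 for unequal levels in replicates 1 and 2, 61 of them higher in replicate 2 and 5 lower (Fisher's exact test, Benjamini-Hochberg adjustment over all 9980 genes and loci tested). This was 45.2% of the loci tested, against 29.5% of all genes and loci (15.2% higher in replicate 2 and 14.3% lower), 26.8% of annotated genes and 52.8% of antisense loci. Of the 99 tested loci seen in both libraries, 19 were called (19.2%, 17 higher and 2 lower). All 47 tested loci at 0 reads in 1 library were called, an outcome fixed by the minimum of 10 reads. Such a locus was tested only with at least 10 reads in the other library, and the 45.2% includes these 47. Of the 2381 annotated genes called, 23 were at 0 in replicate 1 and 9 at 0 in replicate 2. Of the 497 antisense loci called, these counts were 312 and 55. The median log2 ratio was 1.65 in the intergenic loci, 1.65 in the antisense loci and -0.10 over all features. These medians include features at 0 reads in 1 library. Over the 99 intergenic loci seen in both libraries the median was 1.17. With 1 library per animal the test holds no spread between animals, and it compares these 2 libraries alone.

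With and without splicing, more loci were called higher in replicate 2 than lower. Of 20 tested loci with any spliced read, 9 were higher in replicate 2 and 2 lower. Of 52 unspliced loci with a main model of up to 200 bases, 21 were higher and 0 lower, and of 74 longer unspliced ones, 31 were higher and 3 lower. Of 44 tested loci that touch a gene, 22 were higher and 2 lower. Of 102 that do not, 39 were higher and 3 lower. All these counts include the 44 loci called at 0 reads in replicate 1 and the 3 at 0 in replicate 2. Their calls were fixed by the minimum of reads, so the counts are a description only. Loci seen in both libraries were not split in this way.

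The largest ratios belonged to loci seen in 1 library alone, where a fold can be given only as a lower bound, set against 3 reads in the library at 0. Scaled to mouse reads, chr4:91851488-91851668 was at least 327-fold higher in replicate 2, chr11:20334834-20335012 at least 174-fold and chr10:80807991-80808501 at least 46.9-fold. The first 2 follow near-identical Gapdh copies, where the read numbers of single copies are uncertain, so their bounds hold only for reads as placed. No such bound is given for chrX:9328976-9329925 (0 and 87 reads), because the Gm6829 models that cover it in replicate 1 had 35.5 CPM against its 55.9 CPM in replicate 2, a ratio of 1.57. In the other direction, chr12:10898572-10898986 was at least 58.2-fold lower in replicate 2 (adjusted p = 1.3e-45, Fisher's exact test). It follows a copy of Pgk1 at 100% identity, so the same limit holds for this bound. Loci chr2:180719323-180723204 (15 and 0 reads) and chr2:181141336-181147653 (14 and 0 reads, touching Eef1a2) were also called lower, but replicate 2 had other loci on the same bases. Locus chr4:133096215-133101553, seen in both, was lower with a log2 ratio of -2.28 (adjusted p = 3.1e-21, Fisher's exact test).

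Part of the absence in 1 library came with the way loci were drawn. Of 44 loci called higher in replicate 2 and at 0 in replicate 1, 17 overlapped a locus of replicate 1 without meeting the rule for a match. The same held for 2 of the 3 called lower and at 0 in replicate 2, those near Gid8 and at Eef1a2. At Gid8, a ubiquitin ligase subunit gene, chr2:180719323-180723204 had 15 and 0 reads and chr2:180719394-180720964, inside it, had 0 and 27, so this stretch was read in both libraries. At Eef1a2, which encodes a translation elongation factor of muscle and nerve, chr2:181141479-181144101 lay wholly inside chr2:181141336-181147653 and had 0 and 15 reads against its 14 and 0. RefSeq's Eef1a2 overlaps both loci on the same strand. Near Itga11, chr9:62660875-62666057 had 7 and 0 reads, all spliced, and the overlapping chr9:62655532-62661210 had 0 and 16. Models of an annotated gene with reads in the other library covered at least 50% of the exons of 30 of 962 loci seen in replicate 1 alone and of 87 of 3092 seen in replicate 2 alone. One was chr16:4476263-4479499, with 15 reads in replicate 2, which in replicate 1 lay under models of Srl, the sarcoplasmic reticulum protein sarcalumenin, with 2973 reads.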

How the data were processed

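Per the deposited README notes and the source column of the gene models, reads of each library were counted per TALON transcript model on mm10 with GENCODE M21, 1 set of models per library; the aligner, tool versions and read filters are not stated in these sources. The deposited values are raw, unnormalized read counts that the authors made per model. Loci were the gene rows of class Intergenic. Neighbours used the spans of annotated GENCODE M21 transcripts, because deposited gene rows are stretched by new models. Loci with at least 10 reads over both libraries were tested by two-sided Fisher's exact test (scipy 1.17.1) against the other mouse reads, with Benjamini-Hochberg adjustment at 0.05 over annotated genes, antisense and intergenic loci; log2 ratios add 0.5 reads. The test and the matching were tested on simulated data. Pseudogene parents came from blastn 2.17.0; edgeR 4.0.16 and DESeq2 1.42.0 gave alternatives. Named loci were the 12 most read, the 8 with most spliced reads, up to 4 with the largest ratio each way, and the 3 most read of each library alone; others are marked. Members, lists and rules were chosen with earlier results of these data known.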

Additional observations from a re-analysis of the deposited data

How the results depend on the processing

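The number of loci depended most on the reads required. Of 4548 loci, 1355 remained at 2 or more reads, 378 at 5 and 146 at 10 over both libraries, 416 were spliced, and 1 library alone gave 1456 to 3586. Of the 494 matched loci, 163 had at least 2 reads in each library, 224 at least 5 over both, and 59 were spliced in both; other overlap rules gave 406 to 648. The share of mouse reads, 0.507% (0.292% to 0.723% by library), fell to 0.0363% without single-exon models. The spliced share was 6.46% to 8.86% by library, and exceeded the antisense share by 3.55 to 5.06 percentage points. The share of loci touching or near a gene, 61.1% (61.1% to 62.0% by library), was 49.0% for protein-coding genes only and 67.7% for loci of 5 or more reads. The 66 differing loci (61 higher in replicate 2, 5 lower) became 53 (41 and 12) with no minimum of reads, 26 at 20 or more reads, 41 by edgeR's exact test at a set dispersion of 0.04, and 42 without loci that touch a gene, an alternative chosen after seeing the data, as was matching by any overlap (51 loci); scaling by TMM or DESeq2 size factors, which moved all log2 ratios by 0.13, gave 70. Under both scalings the ratios of chr7:28187294-28189073 and chr14:31872346-31880458, neither past the threshold, changed sign to 0.07 and 0.10, and chr3:58102571-58102996 passed it. Leaving out a library leaves no comparison. No paired analysis was possible because the samples form 1 group.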
